A study of Mus musculus with 10 samples.

Results

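The genes described here encode the first steps of T cell receptor signalling: the CD3 chains Cd3e and Cd247, the tyrosine kinases Lck, Zap70, Syk and Txk, the adaptors Lat and Lcp2, and the phospholipase Plcg1. They were given by name, 9 genes in all, and not by any measured value. Every accessible region that overlapped the gene body or lay within 50 kb of the transcription start of one of them was taken, which gave 251 of the 94823 regions of the series. Cd247 had 55 regions, Cd3e and Lcp2 had 31 each, Lck and Plcg1 28 each, Txk 27, Zap70 25, Lat 17 and Syk 9, and no region was reached by more than 1 of these genes. Nearness does not show that a region acts on the gene, and several of the regions lie inside neighbouring genes, which are named where they matter.

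The assay was ATAC-seq, where a transposase cuts and tags open DNA, on thymic invariant natural killer T (iNKT) cells sorted from adult mice. The 4 groups crossed genotype with subset: iNKT1 cells of BALB/c and of SKG mice gave 2 libraries each, and iNKT2 cells gave 3 for each genotype. Both genotypes have the BALB/c background and received no treatment named in the sources. SKG mice carry a germline point change in Zap70 that leaves a weakly signalling kinase wherever Zap70 is expressed, mainly in T and NK cells. The BALB/c mice were bought from Jackson Laboratories, and no littermate controls are named for SKG. Other differences between the 2 lines therefore cannot be told apart from the mutation. iNKT1 cells were sorted as CD27+ CD122+ and iNKT2 cells as CD27+ CD122-, so Il2rb, which encodes CD122, was part of the gate, and the number of animals behind a library is not given in the sources used here. Because nothing states that the libraries of a group came from separate animals, the p-values measure only the spread between these libraries.

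When the receptor binds its ligand, Lck phosphorylates motifs in the CD3 and zeta chains, Zap70 docks on these motifs and phosphorylates Lat and Lcp2 (SLP-76), and the assembled complex activates Plcg1, which starts calcium and Ras signalling. Syk is the relative of Zap70 that serves the B cell receptor and is used by immature thymocytes, and Txk is a kinase of the Tec family found in T and NK cells. The comparison asked whether accessibility at the pathway's own genes differed in SKG cells, where the Zap70 step is weak. A point mutation need not change the insertions at Zap70, so these counts cannot check the genotype labels.

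The libraries held between 14988590 and 36342635 insertions within regions, and the median region between 40 and 120. Levels are given in CPM, insertions scaled to the library total and its TMM factor. Of the iNKT1 markers, Tbx21, Ifng and Cxcr3 had higher locus means in iNKT1 in both genotypes. So did Il2rb, which was part of the gate and cannot check it. Lower sums in iNKT2 were common, at 40.9% of all genes in BALB/c and 20.2% in SKG (edgeR adjusted p under 0.01). Of 6 iNKT2 markers, Ccr7, Il17rb and Il6ra had higher locus means in iNKT2 in both genotypes, while Zbtb16, Il4 and Gata3 did not. In bulk libraries, fewer cells with an open site and less opening per cell cannot be told apart.

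As a first view of each gene, all its regions were summed to 1 value per library, and a gene was called at an adjusted p under 0.01 (edgeR quasi-likelihood test, Benjamini-Hochberg over 18134 protein-coding genes). Sums grow with the number of regions, so they compare libraries and not genes. In iNKT1 cells, none of the 9 sums was called between SKG and BALB/c, against 0.232% of all genes called higher and 0.397% called lower, and 1 of the 9 had an unadjusted p under 0.05. DESeq2 called 1 of them, Syk, lower (adjusted p = 0.0015). In iNKT2 cells, Lat was called higher in SKG and Syk lower, 1 of 9 each, where 12.0% of all genes were called higher and 6.07% lower. The difference between the genotype changes of the subsets (the interaction) was called for none of the 9, against 0.0772% and 0.430% of all genes, with 2 of the 9 at an unadjusted p under 0.05 and none called by DESeq2. With the replicate number as a block within iNKT2, the interaction was called for 3 of the 9, all with a higher change in iNKT2 (Lck, adjusted p = 5.7e-05; Cd3e, 0.00074; Txk, 0.0028), where that fit called 20.1% of all genes in this direction.

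The summed level at Lat, the membrane adaptor, was 130, 119 and 116 CPM in BALB/c iNKT2 and 175, 152 and 150 CPM in SKG iNKT2. The genotypes did not overlap in iNKT2. The log2 change was 0.38 ± 0.08 (SE, edgeR adjusted p = 0.0060). In iNKT1 the sum was 173 and 165 CPM in BALB/c against 184 and 194 CPM in SKG, a log2 change of 0.16 (95% interval -0.06 to 0.38). The call in iNKT2 was lost when libraries were scaled by their totals alone (log2 change 0.25, adjusted p = 0.15) and when any library other than BALB/c iNKT2 replicate 1 or SKG iNKT2 replicate 1 was left out, with the highest adjusted p, 0.077, without BALB/c iNKT2 replicate 2.

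The sums at Zap70, Lck, Cd3e, Txk, Plcg1, Lcp2 and Cd247 were not called for genotype in either subset. For Zap70, the mutated gene, the summed level was 358 and 333 CPM in BALB/c iNKT1, 297 and 345 CPM in SKG iNKT1, 186, 141 and 145 CPM in BALB/c iNKT2, and 181, 150 and 159 CPM in SKG iNKT2. The genotypes overlapped in both subsets. The log2 change with genotype was -0.11 (95% interval -0.43 to 0.21) in iNKT1 and 0.05 (-0.21 to 0.32) in iNKT2. Cd3e was at 229, 185 and 174 CPM in BALB/c iNKT2 and 293, 227 and 230 CPM in SKG iNKT2 (0.35, 0.08 to 0.62, adjusted p = 0.043), and Lck was at 237, 182 and 189 CPM and 289, 216 and 228 CPM (0.27, -0.01 to 0.54, adjusted p = 0.11). With the replicate number as a block within iNKT2, 4 of the 9 sums were called higher in SKG iNKT2 rather than 1, namely Lat, Cd3e (adjusted p = 6.9e-07), Lck (1.8e-05) and Plcg1 (0.0041), but that fit called 46.3% of all genes higher, so the share at the 9 genes lay near the background. Syk was again the 1 called lower, against 12.1% of all genes. A block over all libraries called 2 of the 9 higher, Lat and Cd3e (adjusted p = 0.0045), against 21.9% of all genes, and left Lck at 0.037 and Plcg1 at 0.050. Scaled by library totals alone, the changes were 0.22 at Cd3e (adjusted p = 0.39), 0.14 at Lck (0.61) and 0.03 at Plcg1 (0.86).

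**Figure D1:**
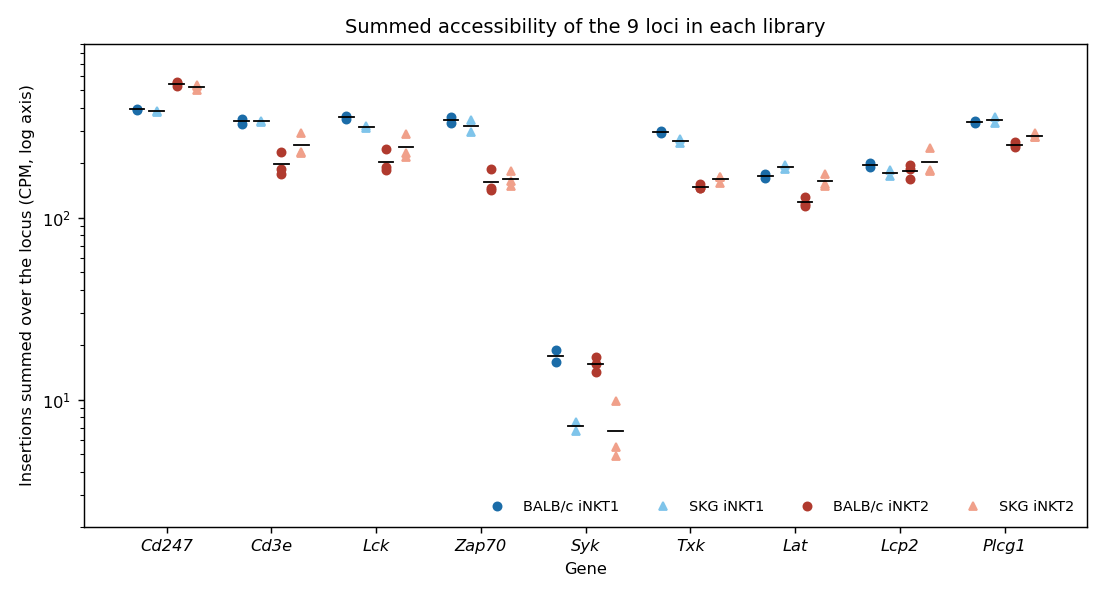
Summed accessibility (CPM, log axis) of all regions at each of the 9 genes, 1 point per library, with bars at the group means (n = 2 in iNKT1 and n = 3 in iNKT2). The genotypes lie close together at most genes, Syk lies lowest and separates by genotype in both subsets (16.1 and 18.7 CPM in BALB/c iNKT1 against 7.52 and 6.74 CPM in SKG iNKT1), and Cd247 is the gene with the highest sums in iNKT2.

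More of the 9 sums were called between the subsets than between the genotypes. In BALB/c, the sum was called higher in iNKT2 at Cd247 (1 of 9, against 13.2% of all genes) and lower at Zap70, Lck, Lat, Txk, Cd3e and Plcg1 (6 of 9, against 40.9%). Zap70 fell by 1.13 ± 0.13 on the log2 scale (SE, edgeR adjusted p = 4.9e-05) and Txk by 1.00 ± 0.07 (adjusted p = 3.1e-06), while Cd247 rose by 0.47 ± 0.06 (adjusted p = 9.3e-05). In SKG, Cd247 was again called higher (1 of 9, against 8.47% of all genes) and Zap70, Txk and Plcg1 lower (3 of 9, against 20.2%). Scaling by library totals alone called 2 of the 9 lower in BALB/c, and leaving out BALB/c iNKT1 replicate 1 called 3. In SKG, DESeq2 called 5 lower, and 6 were called without SKG iNKT2 replicate 1. The block within iNKT2 also called 6 lower in SKG, where it called 39.6% of all genes lower. For the other settings named here the share over all genes was not counted.

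Region by region, a region was called at an adjusted p under 0.01 over all 94823 regions and a change of at least 4-fold. Between the BALB/c subsets, 40 of the 251 regions were called higher in iNKT2 (15.9%, against 15.5% of all regions) and 18 lower (7.17%, against 6.36%). In SKG, 25 were called higher (9.96%, against 10.2%) and 15 lower (5.98%, against 6.96%). These shares lay near those of the whole table. Quantile normalization with voom turned the BALB/c split from 40 higher and 18 lower to 25 and 28, and it lowered the higher count in SKG to 10.

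For genotype, 1 region was called higher in SKG iNKT1 (0.398%, against 0.281% of all regions) and 1 lower (0.398%, against 0.732%). In iNKT2, 0 of 251 were called higher in SKG (against 0.252%; voom and limma called 1) and 5 lower (1.99%, against 4.73%), and 95 of the 251 regions had an unadjusted p under 0.05 in either direction. Either blocked fit called 8 lower in place of 5, where 4.99% (block over all libraries) and 5.26% (block within iNKT2) of all regions were called lower. DESeq2 and voom also called 8, omitting BALB/c iNKT2 replicate 3 gave 8 and omitting SKG iNKT2 replicate 1 gave 11. For these other settings, and for the unadjusted p, the share over all regions was not counted. Without the fold threshold, 10 regions were higher in SKG iNKT2 (3.98%, against 4.02%) and 22 lower (8.76%, against 10.1%), and in iNKT1 1 was higher and 3 lower (against 0.662% and 1.42%). The median log2 change of the 251 regions was -0.04 in iNKT1 and 0.13 in iNKT2, beside -0.03 and 0.01 for all regions. With library totals alone, the medians in iNKT2 were -0.01 for the 251 regions and -0.12 for all. That scaling moves all regions of a library alike, so it cannot test the distance between the medians. Among regions with a mean CPM of at least 1, the medians were 0.04 for the 228 member regions kept and -0.03 for all kept. Quantile normalization gave 0.24 and 0.10.

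**Figure D2:**
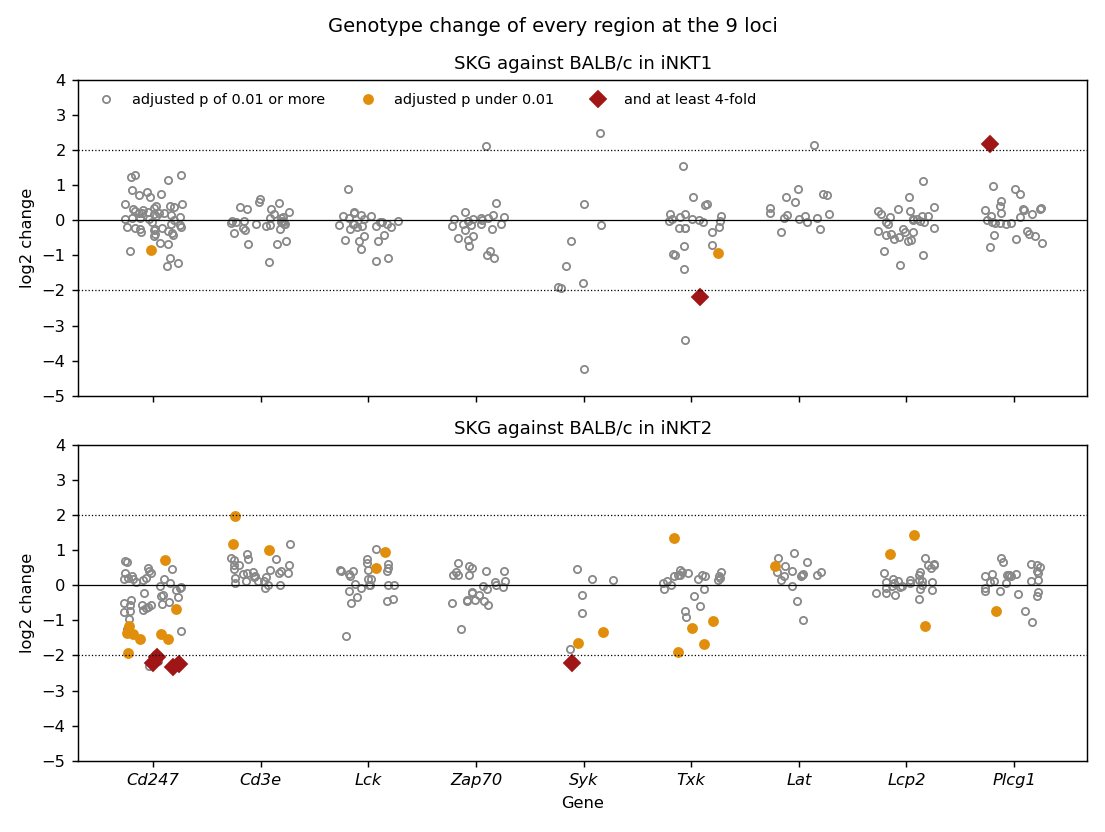
Log2 change of SKG against BALB/c for each of the 251 regions, by gene (points spread sideways for legibility), in iNKT1 (top) and iNKT2 (bottom). Dotted lines mark 4-fold, and the regions called at 4-fold are 1 at Txk and 1 at Plcg1 in iNKT1, and 4 at Cd247 and 1 at Syk in iNKT2.

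At the receptor itself, Cd247 (ENSMUSG00000005763.15, chr1:165788681-165877277, plus strand) encodes the zeta chain, whose motifs carry Zap70, and it held 14 of the 32 regions that passed the test without a fold threshold in SKG iNKT2. Of its 55 regions, 13 were lower in SKG iNKT2 (23.6%, against 10.1% of all regions) and 1 was higher (1.82%, against 4.02%). In 26 of the 55, all 3 SKG iNKT2 libraries lay below all 3 BALB/c iNKT2 libraries, against 21.9% of all regions. Within BALB/c, 10 of the 13 had been called higher in iNKT2 at 4-fold, but these comparisons share the BALB/c iNKT2 libraries and nothing is read from the overlap. Of all Cd247 regions, 25 were called higher in iNKT2 in BALB/c (45.5%, against 15.5% of all regions) and 14 in SKG (25.5%, against 10.2%). None was called lower in either genotype (against 6.36% and 6.96% of all regions). The promoter region over the start (chr1:165788517-165788830, mm10) did not change with genotype beyond its spread, at 16.2, 16.2 and 13.7 CPM in BALB/c iNKT2 and 16.7, 16.2 and 15.8 CPM in SKG iNKT2 (log2 change 0.08, 95% interval -0.21 to 0.37).

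The 4 Cd247 regions called lower in SKG iNKT2 formed 2 pairs, one in introns 13022 and 33359 bp downstream of the start and one near the end of the gene. The central 300 bases of the intronic pair are shown because these regions carry the largest genotype change at the receptor chains (mm10, plus strand, which is the strand of the gene). Capitals mark matches, on either strand, to short strings searched for in all regions: an ETS string (CGGAAG) and an AP-1 string (TGANTCA) in the first, and an NFAT string (TGGAAA) and a Runx string (TGTGGT) in the second.
Cd247 intron, chr1:165801726-165802025: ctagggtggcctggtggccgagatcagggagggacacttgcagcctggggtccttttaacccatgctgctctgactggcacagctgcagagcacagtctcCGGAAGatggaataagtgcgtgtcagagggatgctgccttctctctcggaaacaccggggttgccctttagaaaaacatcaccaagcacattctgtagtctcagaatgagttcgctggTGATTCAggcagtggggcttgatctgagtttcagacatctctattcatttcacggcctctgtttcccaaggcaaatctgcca
Cd247 intron, chr1:165822078-165822377: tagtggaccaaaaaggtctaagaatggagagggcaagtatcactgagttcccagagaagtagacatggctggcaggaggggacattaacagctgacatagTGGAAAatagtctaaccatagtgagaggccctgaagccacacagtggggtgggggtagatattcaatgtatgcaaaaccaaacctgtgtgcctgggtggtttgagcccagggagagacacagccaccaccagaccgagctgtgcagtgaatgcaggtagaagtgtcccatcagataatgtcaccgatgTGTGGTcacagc
The ETS string was present in 11.3% of all regions searched over the same length, the AP-1 string in 10.6%, the NFAT string in 23.4% and the Runx string in 30.3%. A match is a description of letters and not a bound site.

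The first of these regions was at 4.61, 3.04 and 2.68 CPM in BALB/c iNKT2 and 0.891, 0.735 and 0.27 CPM in SKG iNKT2, and it was almost closed in iNKT1 (0.119 and 0.176 CPM in BALB/c, 0.0642 and 0.257 CPM in SKG). The log2 change with genotype in iNKT2 was -2.34 ± 0.38 (SE, edgeR adjusted p = 0.00034), and the genotypes did not overlap. The second was at 12.0, 6.75 and 9.15 CPM in BALB/c iNKT2 and 2.17, 2.07 and 1.62 CPM in SKG iNKT2 (-2.23 ± 0.27, adjusted p = 2.8e-05). It was open in iNKT1 too, at 4.66 and 3.53 CPM in BALB/c and 1.09 and 2.25 CPM in SKG, a log2 change of -1.30 that did not pass the threshold (adjusted p = 0.047).

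The pair near the end of Cd247 lay 79848 and 81059 bp from the start, where the annotated extents of Cd247 and Pou2f1, the gene of the transcription factor Oct-1, overlap, so the regions belong to both genes by position. The first was at 15.8, 16.9 and 14.9 CPM in BALB/c iNKT2 and 4.43, 1.93 and 5.39 CPM in SKG iNKT2 (log2 change -2.03 ± 0.26, SE; edgeR adjusted p = 4.9e-05). The second was at 2.20, 2.01 and 1.94 CPM against 0.475, 0.459 and 0.337 CPM (-2.22 ± 0.42, adjusted p = 0.0013). In all, 5 of the 13 Cd247 regions that were lower in SKG iNKT2 overlapped Pou2f1 as well. Another region in that stretch, 79490 bp from the start, had the smallest adjusted p at Cd247 (2.8e-05) with a change just under 4-fold, from 12.9 ± 1.9 to 3.35 ± 1.2 CPM (SD, n = 3 each). The 4 called regions stayed under an adjusted p of 0.01 with each library left out.

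**Figure D3:**
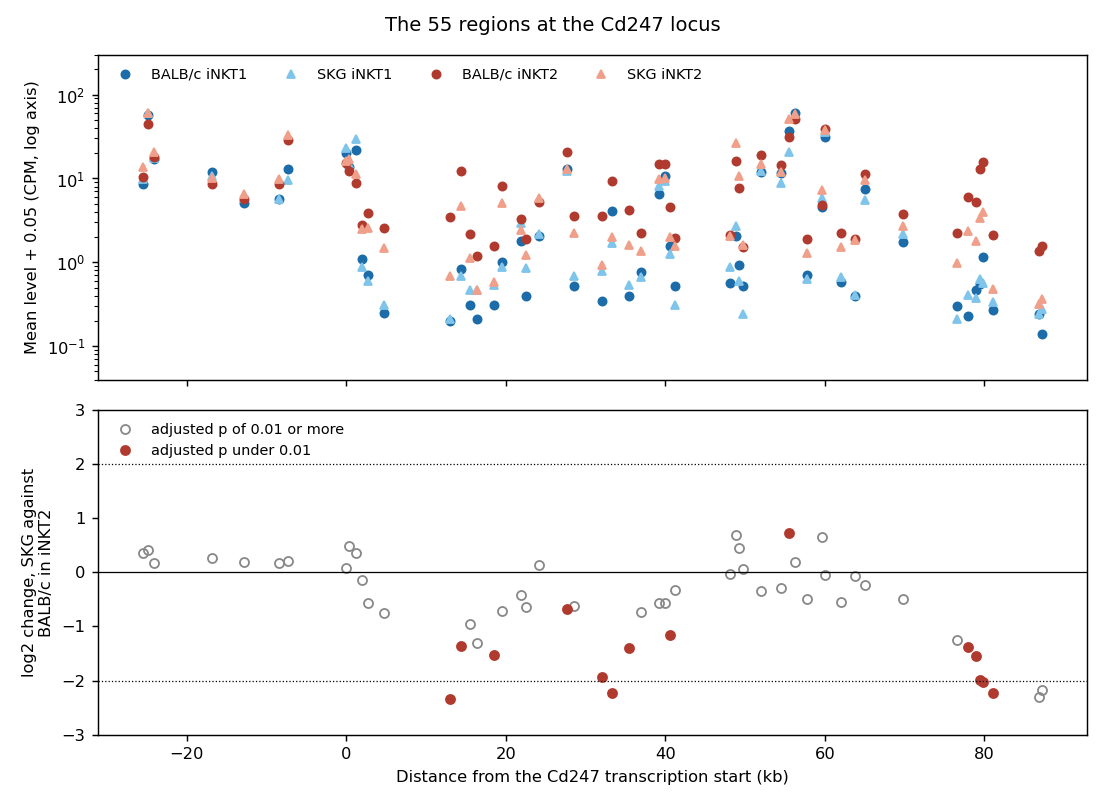
The 55 Cd247 regions by distance from the transcription start, in kb. The upper panel gives the mean CPM of each group (plus 0.05, log axis), and the lower panel the log2 change of SKG against BALB/c in iNKT2, where the 13 lower regions at an adjusted p under 0.01 lie between 13 and 40.5 kb and between 78.0 and 81.1 kb, and the 1 higher region lies at 55.5 kb.

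Cd3e (ENSMUSG00000032093.7, chr9:44998740-45009627, minus strand) encodes the epsilon chain of CD3. None of its 31 regions was called at 4-fold in either genotype comparison. In SKG iNKT2 3 were higher without a fold threshold (9.68%, against 4.02% of all regions), and 29 of the 31 changes were positive. The median log2 change of the 31 was 0.37, beside 0.01 for all regions. The clearest was an intergenic region 6225 bp upstream of the start (chr9:45015852-45016244), at 3.95, 3.46 and 2.89 CPM in BALB/c iNKT2 and 7.79, 7.58 and 8.02 CPM in SKG iNKT2. Every SKG iNKT2 library exceeded every BALB/c iNKT2 library there, and the SKG values lay close to those of iNKT1 (7.29 and 6.66 CPM in BALB/c, 8.80 and 8.79 CPM in SKG). The log2 change was 1.17 ± 0.17 (SE, edgeR adjusted p = 0.00017), and the adjusted p stayed at or below 0.0024 with each library left out. A neighbouring region 5295 bp upstream moved in the same direction (0.99, adjusted p = 0.0061), and the last of the 3, 29818 bp upstream, lay in an exon of Mpzl2 and was weak in all libraries (0.193 to 5.11 CPM). Both of these passed the threshold with all libraries, but reached an adjusted p of 0.040 and 0.061 when 1 was left out, and both were named after their values were seen.

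The promoter of Cd3e (chr9:45009181-45010021) was at 28, 21.7 and 21.5 CPM in BALB/c iNKT2 and 35.1, 29.2 and 27.5 CPM in SKG iNKT2. The groups overlapped, and the log2 change of 0.37 (95% interval 0.08 to 0.66) did not pass the threshold (edgeR adjusted p = 0.059). Cd3d and Cd3g, the neighbouring CD3 genes, share most of the Cd3e regions and each gave a summed log2 change of 0.32 in iNKT2 (adjusted p = 0.051).

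Among the kinases, Lck (ENSMUSG00000000409.14, chr4:129548344-129573641, minus strand) had 28 regions and none called at 4-fold for genotype. Its distal promoter region (chr4:129573521-129573842) was at 33.8 and 31.2 CPM in BALB/c iNKT1, 25.2 and 31.8 CPM in SKG iNKT1, 20.4, 14.9 and 16.1 CPM in BALB/c iNKT2, and 17.3, 11.4 and 11.9 CPM in SKG iNKT2. It fell between the subsets in both genotypes, by 0.92 ± 0.19 in BALB/c (SE, edgeR adjusted p = 0.00057) and 1.06 ± 0.20 in SKG (adjusted p = 0.00032), and the genotypes overlapped in both subsets. A second start of Lck, 14732 bp downstream of the first, lies under a region that was near 27.1 ± 2.3 CPM in BALB/c iNKT1 and 27.7 ± 2.9 CPM in BALB/c iNKT2 (SD, n = 2 and n = 3) and did not differ between the subsets beyond its spread (log2 change 0.03, 95% interval -0.26 to 0.32). This second region was named after its values were seen.

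Zap70 (ENSMUSG00000026117.10, chr1:36761798-36782818, plus strand) had no region that passed the test for genotype in either subset, with or without a fold threshold (0 of 25 by edgeR, with 3 regions for iNKT1 and 5 for iNKT2 below an unadjusted p of 0.05). Its promoter region (chr1:36761574-36762010) was at 50.2 and 42.5 CPM in BALB/c iNKT1, 43.2 and 48.9 CPM in SKG iNKT1, 29.1, 21.9 and 24.2 CPM in BALB/c iNKT2, and 34.6, 27.2 and 30.5 CPM in SKG iNKT2. The genotypes overlapped in both subsets. The log2 change was -0.01 (95% interval -0.37 to 0.35) in iNKT1 and 0.30 (0.00 to 0.59, edgeR adjusted p = 0.13) in iNKT2.

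Between the subsets, 15 of the 25 Zap70 regions were lower in iNKT2 in BALB/c (against 23.4% of all regions at an adjusted p under 0.01 and any fold) and 15 in SKG (against 17.6%), with none higher (against 25.7% and 18.4%). The smallest adjusted p of the BALB/c comparison belonged to a region 41234 bp upstream (chr1:36720126-36720564), inside the gene model 4933424G06Rik, at 18.6 and 17.3 CPM in BALB/c iNKT1 and 2.07, 1.48 and 1.28 CPM in BALB/c iNKT2 (log2 change -3.46 ± 0.28, SE; edgeR adjusted p = 9.6e-08). In SKG it was at 18.3 and 18.7 CPM in iNKT1 and 3.12, 1.65 and 1.21 CPM in iNKT2. Genotype left it within the spread of the libraries. The genes whose summed level across the 10 libraries was most like that of Zap70, apart from genes within 1 Mb, were Zfp473, Vrk3 (which shares the same regions) and Gm17387, all on chromosome 7, with Pearson's r of 0.996 each, a value that mostly follows the gap between the subsets.

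Syk (ENSMUSG00000021457.14, chr13:52583173-52648792, plus strand), the relative of Zap70, had the weakest locus of the 9 and the largest log2 change with genotype. Its summed level was 16.1 and 18.7 CPM in BALB/c iNKT1 and 7.52 and 6.74 CPM in SKG iNKT1. In iNKT2 it was 14.2, 17.1 and 15.7 CPM in BALB/c and 9.78, 4.87 and 5.46 CPM in SKG. The SKG libraries lay below the BALB/c libraries in both subsets. The log2 change was -1.29 ± 0.29 in iNKT1 (SE, edgeR adjusted p = 0.057) and -1.20 ± 0.23 in iNKT2 (adjusted p = 0.0045). With the block within iNKT2 the change in iNKT1 passed the threshold (adjusted p = 0.00012), where that fit called 4.11% of all genes lower. That block has no term for the iNKT1 libraries and left the change at -1.29, so only the estimate of the spread differed. It assumes pairs in iNKT2 that are not shown, so it adds no evidence on iNKT1. The call in iNKT2 was lost without BALB/c iNKT2 replicate 2 (adjusted p = 0.023) or 3 (0.016), SKG iNKT2 replicate 2 (0.010) or 3 (0.017), or BALB/c iNKT1 replicate 1 (0.010).

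The similar sums of the subsets came from different regions. In iNKT1 the signal lay before the gene, at the promoter region 342 bp upstream of the start (chr13:52582370-52582831) and at regions 10894 and 11261 bp upstream. The promoter region was at 8.42 and 8.29 CPM in BALB/c iNKT1, 3.21 and 3.53 CPM in SKG iNKT1, 0.470, 0.476 and 0.330 CPM in BALB/c iNKT2, and 0.862, 0.184 and 0.202 CPM in SKG iNKT2. It was thus near 0 in iNKT2, a fall of 4.26 ± 0.38 on the log2 scale in BALB/c (SE, edgeR adjusted p = 2.3e-07). Within iNKT1 both SKG libraries were below both BALB/c libraries, by 1.31 on the log2 scale, which did not pass the threshold (95% interval -2.10 to -0.52, adjusted p = 0.055).

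In iNKT2 the signal at Syk lay in introns, where 5 regions stood 32047 to 52340 bp downstream of the start. The one called lower in SKG is shown (mm10, plus strand, the strand of the gene), with capitals at 3 matches to a Tcf string (CTTTGA, read here on the minus strand as TCAAAG), which was present in 21.5% of all regions.
Syk intron, chr13:52617143-52617442: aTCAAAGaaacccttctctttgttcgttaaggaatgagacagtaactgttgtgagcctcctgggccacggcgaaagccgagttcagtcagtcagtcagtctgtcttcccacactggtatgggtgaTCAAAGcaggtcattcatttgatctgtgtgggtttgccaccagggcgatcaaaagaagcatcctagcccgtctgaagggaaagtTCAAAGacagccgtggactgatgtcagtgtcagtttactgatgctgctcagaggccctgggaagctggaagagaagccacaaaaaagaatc
That region was at 2.48, 3.49 and 3.34 CPM in BALB/c iNKT2 and 1.19, 0.276 and 0.337 CPM in SKG iNKT2 (log2 change -2.22 ± 0.43, SE; edgeR adjusted p = 0.0019), and it was almost closed in iNKT1 (0.119 and 0.0441 CPM in BALB/c and no insertion in either SKG library). Of the 5 intronic regions, 3 were lower in SKG iNKT2 at an adjusted p under 0.01, against 10.1% of all regions. In all 5 every SKG iNKT2 library lay below every BALB/c iNKT2 library, against the 21.9% of all regions given above. The BALB/c iNKT2 libraries also show where the iNKT2 signal lay, so nothing is read from that overlap. The adjusted p of the called region was 0.011 without BALB/c iNKT2 replicate 2.

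Syk is a gene of B and myeloid cells as well, so markers of other cells are given beside it as locus sums. The myeloid genes Lyz2 and Csf1r were near 0 in all libraries (0.449 to 3.70 CPM), with no region at their promoters, and in iNKT2 they lay lower in SKG without overlap. Lyz2 was at 3.58, 3.70 and 3.42 CPM in BALB/c iNKT2 and 2.23, 2.20 and 2.29 CPM in SKG iNKT2 (log2 change -0.67, edgeR adjusted p = 0.018), and Csf1r changed by -0.77 (adjusted p = 0.031). The other marker of that list, Spi1, was at 176 CPM in BALB/c iNKT2 and 204 CPM in SKG iNKT2.

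Of the B cell markers, in group means for BALB/c and SKG iNKT2, Cd79a was at 184 and 209 CPM, Ms4a1 at 13.6 and 12.9 CPM and Ebf1 at 16.6 and 16.4 CPM, and no region was listed at the promoters of Cd79a and Ms4a1. Of the immature thymocyte markers, Rag1 was at 93.5 and 74.8 CPM, Dntt at 42.2 and 61.9 CPM and Cd8b1 at 5.04 and 4.53 CPM. Of the iNKT17 markers reported, Il17a was at 68.2 and 40.5 CPM (log2 change -0.76, edgeR adjusted p = 0.0058) and Il23r at 117 and 105 CPM. The part of such cells in the genotype differences at Cd247 and Syk was not tested. Among the genes whose sums were most like that of Syk over the 10 libraries were AL607142.1 (Pearson's r = 0.947) and AC117239.2 (0.938).

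Txk (ENSMUSG00000054892.14, chr5:72695978-72752777, minus strand) had a region that was lower in SKG in both subsets at an adjusted p under 0.01. The Cd247 intron 33359 bp downstream and the Syk sum were also lower in both, but passed that threshold in iNKT2 alone. The Txk region lay 40465 bp upstream of the Txk start, in an intron of the neighbouring kinase gene Tec (chr5:72793242-72793626). It was the only one of the 251 called lower in SKG iNKT1. Its central 300 bases are shown on the plus strand (mm10, opposite to both genes), with a match to the Runx string in capitals (ACCACA, the complement of TGTGGT).
Tec intron near Txk, chr5:72793285-72793584: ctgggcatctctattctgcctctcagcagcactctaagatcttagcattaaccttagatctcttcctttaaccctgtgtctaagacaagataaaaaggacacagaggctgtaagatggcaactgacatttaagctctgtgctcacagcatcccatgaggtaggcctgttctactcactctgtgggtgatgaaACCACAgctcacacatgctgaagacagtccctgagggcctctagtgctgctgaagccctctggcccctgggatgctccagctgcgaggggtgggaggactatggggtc
It was at 9.68 and 8.29 CPM in BALB/c iNKT1 and 1.93 and 1.99 CPM in SKG iNKT1, a change of -2.20 ± 0.33 on the log2 scale (SE, edgeR adjusted p = 0.0010). In iNKT2 it was at 5.61, 3.15 and 3.46 CPM in BALB/c and 1.63, 0.918 and 1.15 CPM in SKG, that is -1.68 ± 0.28 (adjusted p = 0.00040). The genotypes did not overlap in either subset. In iNKT1 the adjusted p rose to 0.025 when BALB/c iNKT1 replicate 1 was omitted, and to 0.030 and 0.024 when SKG iNKT1 replicate 1 or 2 was.

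A second region lower in SKG in both subsets lay 4515 bp upstream of Txk, in an exon of Tec (chr5:72757292-72757962). It was at 30.9 and 31.2 CPM in BALB/c iNKT1, 16.3 and 16.0 CPM in SKG iNKT1, 5.52, 4.42 and 4.58 CPM in BALB/c iNKT2, and 2.50, 2.34 and 2.36 CPM in SKG iNKT2. Each genotype step was close to 2-fold, with log2 changes of -0.94 ± 0.17 (SE, edgeR adjusted p = 0.0047) and -1.01 ± 0.17 (adjusted p = 0.00042). The step in iNKT1 reached an adjusted p of 0.069 without BALB/c iNKT1 replicate 1, the 3 other iNKT1 libraries gave 0.051 to 0.064, and BALB/c iNKT2 replicates 2 and 3 gave 0.012 each. The locus sum of Tec itself was 453 and 449 CPM in BALB/c iNKT1 and 324 and 330 CPM in SKG iNKT1 (log2 change -0.46, adjusted p = 0.028), and Tec and Txk share regions by position.

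At the internal start of Txk (Txk-202, under a region 15966 bp downstream, chr5:72736177-72736811) the direction was the opposite. This region was at 19.4 and 17.3 CPM in BALB/c iNKT1, 20.1 and 16.3 CPM in SKG iNKT1, 2.29, 1.82 and 1.61 CPM in BALB/c iNKT2, and 3.86, 5.33 and 5.53 CPM in SKG iNKT2. SKG iNKT2 libraries were above BALB/c iNKT2 libraries and well below iNKT1 (log2 change 1.34 ± 0.21 in iNKT2, SE; edgeR adjusted p = 0.00024). At the main Txk promoter (chr5:72752593-72753041) the level was 62.4 ± 5.1 CPM in BALB/c iNKT2 and 74.7 ± 8.8 CPM in SKG iNKT2 (SD, n = 3 each; log2 change 0.26, 95% interval 0.00 to 0.52, adjusted p = 0.13).

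Of the adaptors, Lat (ENSMUSG00000030742.7, chr7:126363824-126369570, minus strand) had a promoter region, shared with an exon of Spns1 (chr7:126369401-126370085), at 24.8, 21.4 and 22.5 CPM in BALB/c iNKT2 and 30.9, 30.2 and 28.8 CPM in SKG iNKT2. The genotypes did not overlap in iNKT2, and the log2 change of 0.39 (95% interval 0.13 to 0.65) did not pass the threshold (edgeR adjusted p = 0.030). The 1 Lat region that did (chr7:126377290-126378222) lay 7720 bp upstream and covers the start of the neighbouring gene Spns1. It counts into the Lat sum, with means of 27.3 of 122 CPM in BALB/c iNKT2 and 39.6 of 159 CPM in SKG iNKT2. By library it was at 28.5, 26.5 and 26.9 CPM in BALB/c iNKT2 and 42.4, 37.0 and 39.5 CPM in SKG iNKT2 (log2 change 0.54 ± 0.11, SE, edgeR adjusted p = 0.0025). Its adjusted p was 0.028 without BALB/c iNKT2 replicate 2 and 0.021 without replicate 3.

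Lcp2 (ENSMUSG00000002699.13, chr11:34046920-34092295, plus strand) had 31 regions and a locus sum that differed neither by genotype nor by subset beyond the threshold (log2 change with genotype -0.15 in iNKT1 and 0.15 in iNKT2). Its promoter region (chr11:34046950-34047286, 30 bp after the first start) was at 10.5 ± 1.5 CPM in BALB/c iNKT2 and 11.3 ± 2.5 CPM in SKG iNKT2 (SD, n = 3 each). Beyond the fold threshold no region was called for genotype. Without it, 2 were higher and 1 lower in SKG iNKT2, and the smallest adjusted p (0.00081) belonged to a region 35719 bp upstream that is described with the interaction.

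Plcg1 (ENSMUSG00000016933.17, chr2:160731300-160775760, plus strand), the enzyme downstream of the adaptors, held the only region called higher in SKG iNKT1. It overlapped an exon 16591 bp downstream of the start (chr2:160747891-160748336), and its central 300 bases are shown on the plus strand, the strand of the gene, with a T-box string (GGTGTG, here as CACACC) and a Runx string in capitals. The T-box string was present in 23.4% of all regions.
Plcg1 exon, chr2:160747964-160748263: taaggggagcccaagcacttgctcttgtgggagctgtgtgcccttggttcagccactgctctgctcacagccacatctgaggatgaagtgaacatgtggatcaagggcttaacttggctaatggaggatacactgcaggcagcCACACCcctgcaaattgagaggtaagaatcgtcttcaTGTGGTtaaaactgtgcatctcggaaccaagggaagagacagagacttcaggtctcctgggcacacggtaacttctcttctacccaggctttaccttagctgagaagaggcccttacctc
The level was 0.418 and 0.309 CPM in BALB/c iNKT1 and 1.61 and 1.80 CPM in SKG iNKT1, beside 2.48, 4.07 and 3.46 CPM in BALB/c iNKT2 and 3.60, 2.25 and 2.43 CPM in SKG iNKT2. The log2 change in iNKT1 was 2.18 ± 0.43 (SE, edgeR adjusted p = 0.0071), and SKG iNKT1 lay between BALB/c iNKT1 and both iNKT2 groups. The call was lost with voom, with quantile normalization and with library totals, and without any 1 of the 4 iNKT1 libraries, BALB/c iNKT2 replicate 3 or SKG iNKT2 replicate 3 (adjusted p = 0.010 to 0.072). The promoter of Plcg1 (chr2:160730671-160731389) was at 43.6 ± 1.4 CPM in BALB/c iNKT1 and 41.6 ± 1.1 CPM in SKG iNKT1 (SD, n = 2 each), and at 34.9 ± 3.6 and 42.5 ± 4.1 CPM in BALB/c and SKG iNKT2 (n = 3 each).

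Over the 9 genes, 22 regions lay at promoters, that is within 1 kb of the first annotated start of the gene. The regions over the internal starts of Lck and Txk described above are not among the 22. For genotype, edgeR called none of the 22. Those with an unadjusted p below 0.05 numbered 1 for iNKT1 and 9 for iNKT2. In iNKT2 18 of the 22 changes were positive, with a median of 0.26, and in iNKT1 15 were negative, with a median of -0.08. These directions were not counted over all promoters, so they are not read as particular to these genes. For the locus sums, the median log2 change in iNKT2 was 0.15 over the 9 genes and 0.17 over all genes. In iNKT1 these medians were -0.11 and 0.03. The regions within gene bodies away from promoters held all 5 calls in SKG iNKT2 (5 of 123, 4.07%). All 5 were lower, and 4.73% of all regions were called lower, so this share lay near the background. Per kb, so that genes can be compared, the promoter regions in BALB/c iNKT1 ranked as Txk (157 CPM per kb), Zap70 (106), Lck (101), Cd247 (63.1), Plcg1 (60.6), Lat (52.3), Cd3e (41.5), Lcp2 (40.8) and Syk (18.1). Zap70 and Lck overlapped in their libraries, as did Cd247 and Plcg1 and as did Cd3e and Lcp2, so the order within these pairs is not set. In SKG iNKT2 Txk (166.5) came first and Syk (0.900) last, and Zap70 (70.4) and Plcg1 (59.1), next in order, overlapped in their libraries.

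**Figure D4:**
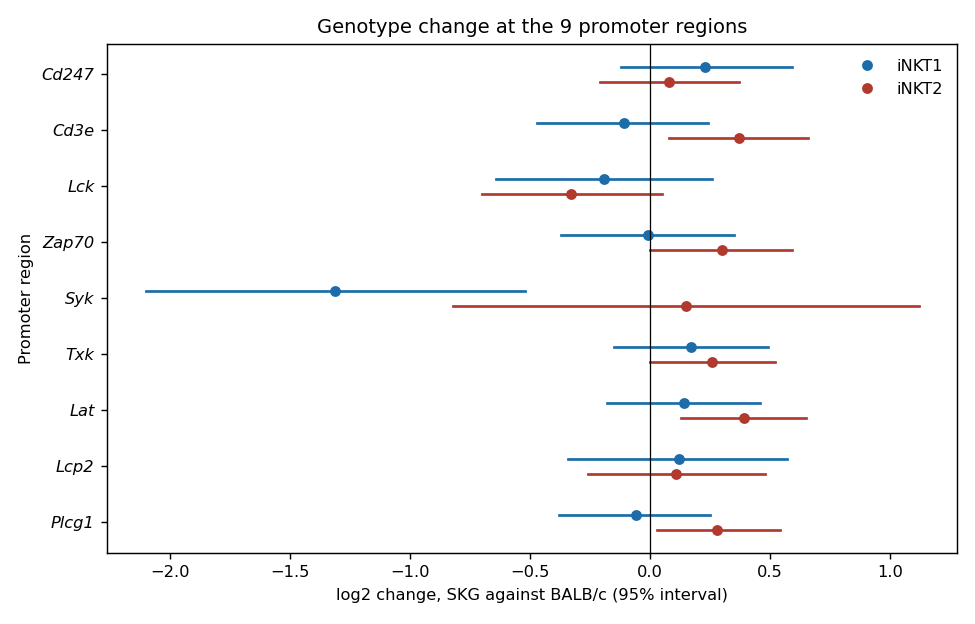
Log2 change of SKG against BALB/c at the promoter region of each gene with its 95% interval, in iNKT1 (blue) and iNKT2 (red). In iNKT2 8 of the 9 estimates are positive, from 0.08 at Cd247 to 0.39 at Lat, with the widest interval at Syk (-0.82 to 1.12), and Lck is at -0.33. The directions were not counted over all promoters. In iNKT1 the interval of Syk alone leaves 0.

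For 4 regions the genotype change differed between the subsets at an adjusted p under 0.01, 3 with a higher and 1 with a lower change in iNKT2 (1.20% and 0.398% of the 251 regions, against 0.446% and 0.479% of all). At 4-fold this was 0 and 1, against 0.189% and 0.341%. In the first, an intron of Cd247 55498 bp from the start (chr1:165844179-165844934), the level was 32 and 42.1 CPM in BALB/c iNKT1, 19.8 and 21 CPM in SKG iNKT1, 32, 29.7 and 32.1 CPM in BALB/c iNKT2, and 57.2, 47.9 and 50.1 CPM in SKG iNKT2. SKG was lower in iNKT1 and higher in iNKT2 with no overlap in either, by -0.86 ± 0.16 and 0.73 ± 0.13 (log2, SE, edgeR adjusted p = 0.0050 and 0.00068). The difference of the changes was 1.59 ± 0.20 (adjusted p = 0.0010), which rose to 0.015 without BALB/c iNKT1 replicate 2 and to 0.018 and 0.012 without SKG iNKT1 replicates 1 and 2. The change in iNKT1 lost the threshold without any 1 of the 4 iNKT1 libraries or BALB/c iNKT2 replicate 2 or 3 (adjusted p = 0.011 to 0.097).

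The second lay in an intron of Lck 3200 bp downstream of the start (chr4:129570007-129570441), at 27.9 and 32.2 CPM in BALB/c iNKT1, 16.6 and 17.8 CPM in SKG iNKT1, 17.4, 12.2 and 12.8 CPM in BALB/c iNKT2, and 36.5, 20.1 and 24.5 CPM in SKG iNKT2. BALB/c iNKT1 and SKG iNKT2 were the high groups, and the difference of the changes was 1.74 ± 0.31 (SE, edgeR adjusted p = 0.0069). The third lay 35719 bp upstream of Lcp2 in the gene model 4930469K13Rik (chr11:34010768-34011201). It was at 12.4 and 14.9 CPM in BALB/c iNKT1, 6.55 and 8.15 CPM in SKG iNKT1, 10.9, 11.4 and 10.3 CPM in BALB/c iNKT2, and 23.4, 17.4 and 19.4 CPM in SKG iNKT2 (1.77 ± 0.26, adjusted p = 0.0021). The fourth, in an intron of Cd247 32040 bp from the start, went the other way, with 0.329 and 0.265 CPM in BALB/c iNKT1, 0.642 and 0.834 CPM in SKG iNKT1, 3.42, 4.29 and 2.72 CPM in BALB/c iNKT2, and 1.04, 1.06 and 0.539 CPM in SKG iNKT2 (-3.21 ± 0.60, adjusted p = 0.0086). Each of these last 3 lost the threshold when single libraries were omitted, with adjusted p-values up to 0.057, 0.027 and 0.067. The regions were described for this contrast after their values were seen.

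**Figure D5:**
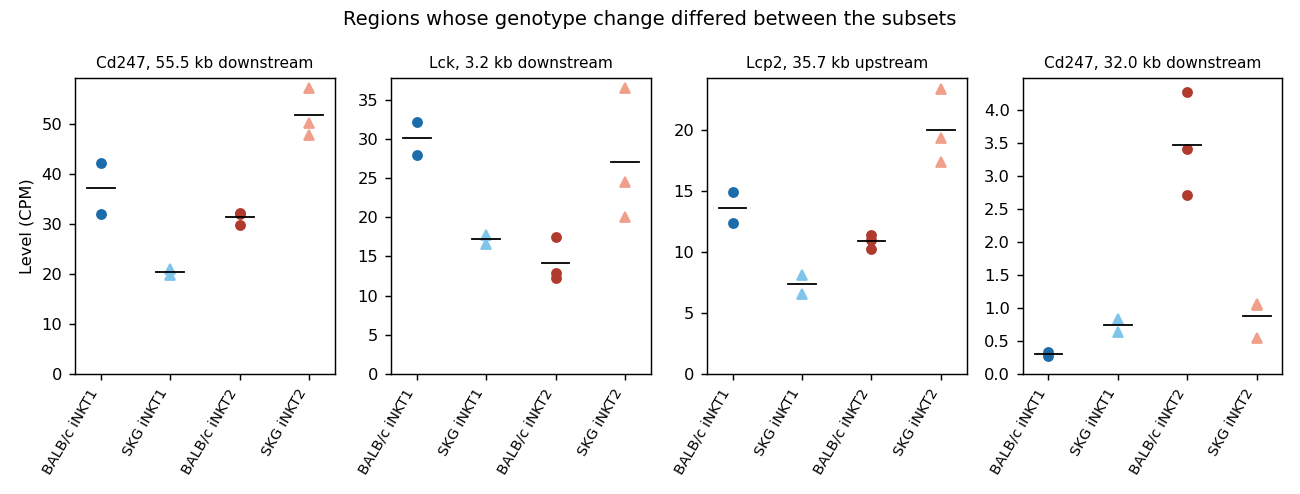
Level in CPM of the 4 regions whose genotype change differed between iNKT1 and iNKT2, 1 point per library, with bars at group means. In the 3 left panels SKG lies below BALB/c in iNKT1 and above it in iNKT2, and in the right panel the order is reversed.

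The wider pathway gave a frame for the 9 genes. A list of 24 other genes of the pathway (13 adaptors, kinases and effectors and 11 regulators) had 702 regions, 31 of them shared with the 9 genes. Their summed levels were called higher in SKG iNKT2 for 2 of 24 (against 12.0% of all genes) and lower for none. Grap2, the Grb2-related adaptor that binds Lcp2, was at 195, 159 and 149 CPM in BALB/c iNKT2 and 329, 246 and 256 CPM in SKG iNKT2 (log2 change 0.72 ± 0.12, SE; edgeR adjusted p = 0.0027; 0.034 at most with 1 library left out).

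In SKG iNKT1, 1 of the 24 was called higher, Themis, which is needed in thymocytes for signalling during selection. Its sum was 9.62 and 9.17 CPM in BALB/c iNKT1, 44.6 and 45.5 CPM in SKG iNKT1, 43.3, 60.5 and 59.6 CPM in BALB/c iNKT2, and 59.9, 81.1 and 78.8 CPM in SKG iNKT2. In iNKT1 the change was 2.26 ± 0.20 on the log2 scale (SE, edgeR adjusted p = 0.00058, at most 0.011 with 1 library left out), which put SKG iNKT1 near BALB/c iNKT2, and the change differed from that in iNKT2 (-1.84 ± 0.24, adjusted p = 0.0056, at most 0.053). Between the BALB/c subsets 17 of the 24 sums were lower in iNKT2 (against 40.9% of all genes) and 1, Themis, higher (against 13.2%), and in SKG 9 were lower (against 20.2%) and 1 higher (against 8.47%). The list was chosen with earlier results of these data known, so these counts describe it and no more.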

How the data were processed

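Thymic iNKT libraries were profiled by ATAC-seq in 10 samples, grouped by the strain and cell population that the labels give. Per the study's methods and the labels, the authors aligned reads to mm10 with Bowtie 1.0, trimmed those left unaligned with Trim Galore and aligned them again, merged both sets, removed mitochondrial reads and duplicates (Picard), called summits of subnucleosomal fragments with MACS2 in each replicate, merged them into 1 region set and counted insertions. The deposited table holds raw counts of insertions per region and library, although its name speaks of normalized counts. Each of its 10 value columns matched 1 sample, and 0 columns were left unmatched. Totals are insertions within regions, not full depth, and intervals cover the spread between libraries.

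Counts were fitted with edgeR 4.0.16 in R 4.3.3 (quasi-likelihood, TMM factors, 1 mean per group over all 10 libraries), with Benjamini-Hochberg adjustment over all 94823 regions or over 18134 gene sums. The design written at the start named the same test. SE is the absolute log2 change divided by the square root of F, and no filter on low counts was used. Locus sums, DESeq2 1.42.0, voom with limma 3.58.1, quantile normalization, library totals, a mean CPM minimum of 1, windows of 10 and 100 kb, looser thresholds (0.05 and 2-fold), replicate blocks and the omission of each library were run, and the fits were tested on simulated data. The block within iNKT2 was added after seeing the data. Named regions were, for each gene, the promoter region, the region of smallest adjusted p in the BALB/c subset comparison and in each genotype comparison, and those called for genotype, up to 5. The gene members, lists, motif strings and tests were chosen with earlier results of these data known. Some genes of these lists are not reported here.

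Libraries with the same replicate number were checked for shared deviations from their group means. Between BALB/c and SKG iNKT2 these correlated at 0.492, 0.165 and 0.202, all above 0.1, so the numbers were read as pairs there. However, BALB/c iNKT2 replicate 3 correlated more with SKG iNKT2 replicate 2 (0.278), and BALB/c replicate 2 more with SKG replicate 3 (0.180). The numbers are thus not shown to be pairs, and the main fit used no block. Coordinates are 1-based on GRCm38 (mm10), with GENCODE M21 genes. The sequences are from the RefSeq GRCm38 genome. Of the RefSeq promoter sequences at these genes, 14 of 14 were identical to it.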

Additional observations from a re-analysis of the deposited data

Results flagged for a closer look

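The genotype change differed between iNKT1 and iNKT2 at 4 regions of the 9 genes, by a test of the difference itself (edgeR, adjusted p under 0.01 over all regions). The difference of the log2 changes was -3.21 at the Cd247 intron 32040 bp from the start, 1.59 at the Cd247 intron 55498 bp from the start, 1.74 at the Lck intron 3200 bp from the start and 1.77 at the region 35719 bp upstream of Lcp2. Each of the 4 passed the threshold with all libraries and lost it when some single libraries were left out, with the highest adjusted p of 0.067 (Cd247, without SKG iNKT1 replicate 2), 0.018 (Cd247, without SKG iNKT1 replicate 1), 0.057 (Lck, without SKG iNKT1 replicate 1) and 0.027 (Lcp2, without SKG iNKT1 replicate 1). Leaving out an iNKT1 library leaves 1 sample in its group, which is then assumed to vary like the others. No group of samples held a value that stood apart by the test applied to groups of 4 or more, since no group had 4 samples.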

How the results depend on the processing

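The counts of called regions at the 9 genes kept within 1.5 times of the main value except as follows, and the causes were not tested. For SKG against BALB/c in iNKT2, the 5 lower regions became 8 with DESeq2, voom, library totals and either replicate block, 27 at an adjusted p under 0.05 and 2-fold and 9 with the 100 kb window (4 to 11 with 1 library left out), and the 0 higher became 1 with voom, 3 with quantile normalization and 4 at the looser threshold (0 to 1). In iNKT1, the 1 higher region became 0 with voom, quantile normalization and library totals (0 to 1), and the 1 lower became 0 with quantile normalization and the 10 kb window, 4 at the looser threshold and 3 with the 100 kb window (0 to 1). Between the BALB/c subsets, quantile normalization gave 25 higher and 28 lower, the looser threshold 57 lower and the 10 kb window 10 lower. In SKG, quantile normalization gave 10 higher, the looser threshold 46 higher and 39 lower, and the 10 kb window 8 lower. The 1 region with a lower change in the interaction became 3 with DESeq2, 0 with voom, quantile normalization and library totals, 3 at the looser threshold and 2 with the 100 kb window (0 to 2), and the looser threshold gave 4 with a higher change against 0.

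For the sums, the 1 called higher in SKG iNKT2 became 0 with library totals, 2 with the 10 kb window and the replicate block over all libraries, and 4 with the block within iNKT2 (0 to 1), and the 1 called lower ran from 0 to 1. In iNKT1 0 lower became 1 with DESeq2 (0 to 1). Between the BALB/c subsets, the 6 lower became 2 with library totals (3 to 6), and in SKG the 3 lower became 5 with DESeq2 (2 to 6). The block within iNKT2 also gave 6 lower sums between the SKG subsets, 1 lower sum in SKG iNKT1, 3 sums with a higher change in the interaction against 0, 2 regions lower in SKG iNKT1 and 3 with a lower change in the interaction. It has no term for the iNKT1 libraries, so its iNKT1 counts differ through the estimate of the spread. Among the values of single regions and genes, 3458 stayed on their side of the threshold, 154 lost it, 61 gained it and 137 moved, and no called value changed direction. The shallowest libraries, with a median of 40 insertions per region, limit what can be seen at regions under 1 CPM.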
